A study of Mus musculus with 8 samples.

Results

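Expression of 9 genes of the yolk sac and gut endoderm, which encode secreted carrier proteins and the receptor that takes proteins up again, was examined in single mouse embryos collected whole at E8.5 (embryonic day 8.5). The genes were *Afp*, *Ttr*, *Rbp4*, *Trf*, *Apoa1*, *Apoa4*, *Apob*, *Amn* and *Cubn*, of 20660 genes matched to probes on the array. They were represented by 12 of the 55681 distinct probes, taken by the RefSeq transcript for which each probe had been designed. All 12 probes gave signals well above background in each of the 8 embryos and passed the filter on low signal, which kept 29718 probes.

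All 8 embryos were heterozygous for *Eed* l7Rn5-1989SB, a hypomorphic allele of *Eed*, which encodes a core component of the histone methyltransferase complex PRC2. The sire was homozygous (*Eed* hypo/hypo) for 4 embryos, termed the HOM father group, and heterozygous (*Eed* hypo/wt) for the other 4, termed the HET father group. Mothers were wild type, all mice were on a C57bl6/129 background, and each group held 2 female and 2 male embryos matched for stage. The comparison asked whether reduced EED function in the father altered expression in offspring that carry the same *Eed* genotype. The study describes fewer sires than embryos in a group, and embryos can therefore be siblings, so the p-values measure the spread between embryos. Each group had been hybridised on its own slide, and slide and father therefore cannot be told apart in any value of the father comparison. Between 51.9% and 60.8% of spots were well above background per array.

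The visceral endoderm of the yolk sac is an absorptive and secretory epithelium that serves the embryo before the liver forms. It releases plasma proteins and lipoproteins towards the embryonic circulation, and on its outer face the receptor complex of cubilin and amnionless takes up maternal proteins. The same genes come on in gut endoderm as it gives rise to liver and intestine, and most are known as markers of yolk sac and foetal liver. In RNA from a whole sample, fewer endoderm cells and less RNA per endoderm cell cannot be told apart.

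The plasma carriers did not differ significantly between father groups. Values are log2 signals relative to the 75th percentile of the array, on which 0 is that percentile, and differences are HOM minus HET father on this scale. *Afp*, the major serum protein of the embryo and a relative of albumin, was at 7.29, 6.85, 6.74 and 7.07 in the 4 embryos of HOM fathers and at 7.26, 7.10, 7.06 and 7.02 in those of HET fathers. The HOM father group held both the highest and the lowest of these signals. The difference was -0.12 (95% interval -0.40 to 0.16, limma adjusted p = 0.525). *Ttr*, which carries thyroid hormone and retinol-binding protein, was at 6.25, 6.03, 5.96 and 6.11 compared with 6.31, 6.12, 6.34 and 6.21, a difference of -0.16 (-0.34 to 0.03, limma adjusted p = 0.211). Replicates 2, 3 and 4 of the HOM father group lay just below every HET father embryo, and replicate 1 lay among them.

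*Rbp4*, which carries retinol out of the endoderm, was at 7.57, 7.42, 7.38 and 7.52 compared with 7.50, 7.35, 7.56 and 7.55. The groups overlapped almost wholly, and the difference was -0.02 (-0.18 to 0.14, limma adjusted p = 0.867). Transferrin (*Trf*), the iron carrier, had 2 probes. A_55_P2037584 was at 5.66, 5.36, 5.27 and 5.57 compared with 5.58, 5.74, 5.49 and 5.64 (difference -0.15, -0.38 to 0.08, limma adjusted p = 0.329). A_55_P2037585 was at 4.43, 4.05, 3.96 and 4.30 compared with 4.22, 4.39, 4.05 and 4.25 (difference -0.04, -0.32 to 0.24, limma adjusted p = 0.850). Both probes placed replicates 1 and 4 of the HOM father group above its replicates 2 and 3, as *Afp*, *Ttr* and *Rbp4* did.

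**Figure D1:**
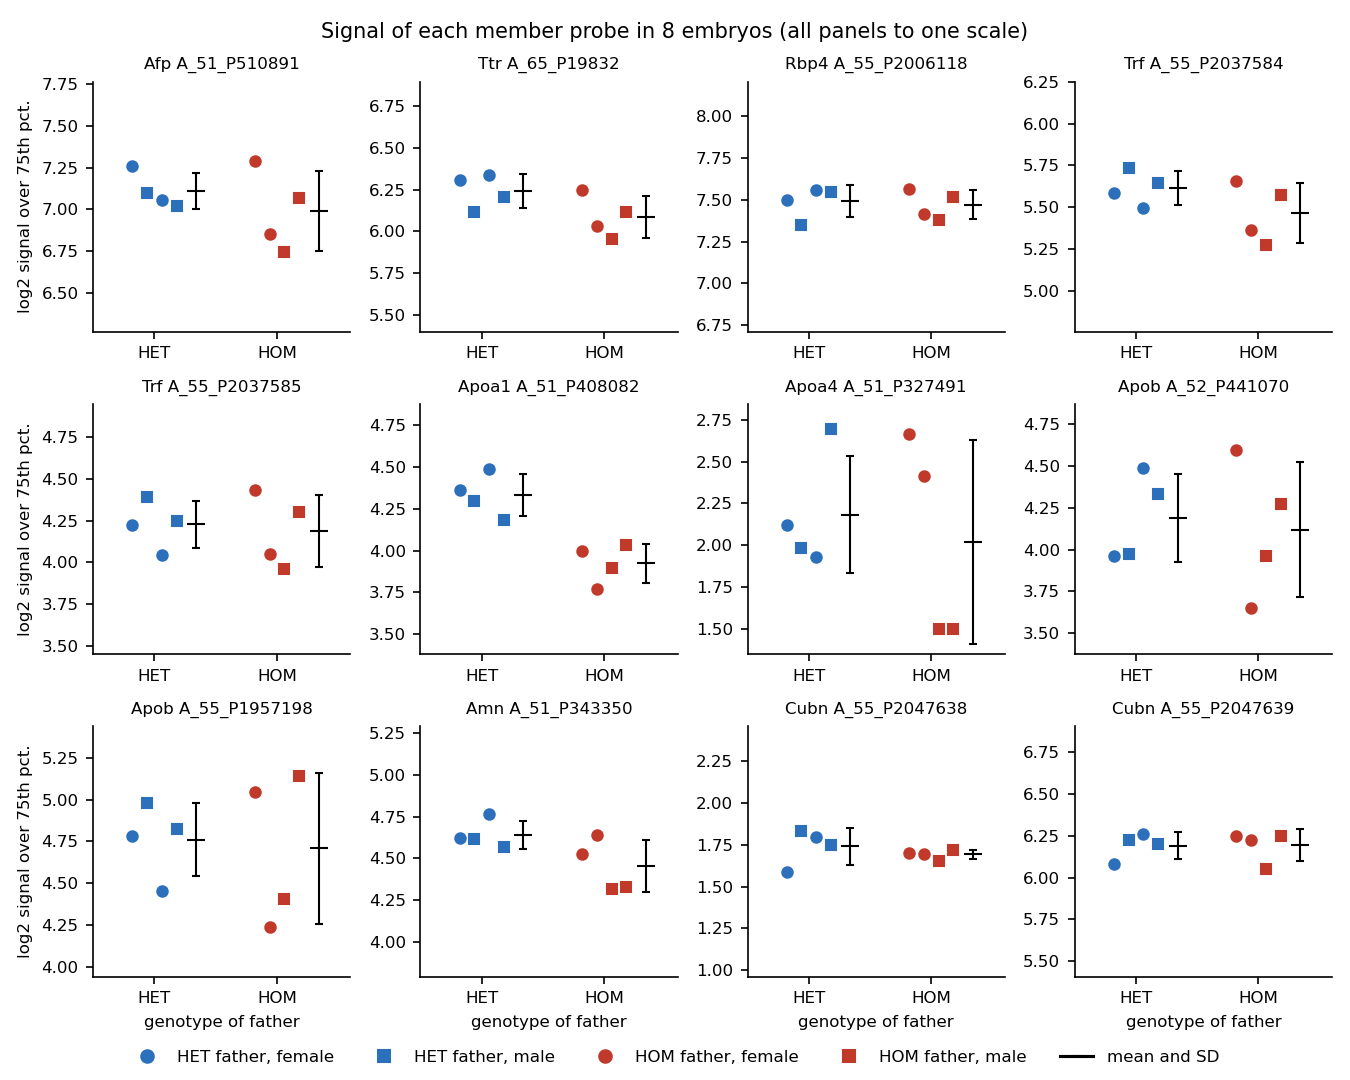
Log2 signal relative to the 75th percentile of the array (vertical axis) for the 12 probes, by genotype of the father (HET blue, HOM red), with circles for females, squares for males, and mean ± SD in black. The groups overlap in every panel except that of *Apoa1*, where HOM father embryos lie between 3.77 and 4.03 and HET father embryos between 4.18 and 4.49.

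Among the apolipoproteins, *Apoa1* was lower in embryos of HOM fathers. *Apoa1* encodes the main protein of high-density lipoprotein. Its signal was 3.99, 3.77, 3.89 and 4.03 in embryos of HOM fathers and 4.36, 4.30, 4.49 and 4.18 in those of HET fathers, so that every HOM father embryo lay below every HET father embryo. Groups that did not overlap were found for 27.1% of all tested probes, and for 1 of these 12. The difference was -0.41 (-0.61 to -0.21, SE 0.09), a 1.33-fold lower signal (limma adjusted p = 0.0139). The call did not hold when replicate number was used as a block (adjusted p = 0.0568) or when dim probes were kept in the test (adjusted p = 0.0553), and the difference itself was between -0.46 and -0.36 when each embryo was left out in turn. The probe is printed in 10 spots per array, whose SD was at most 0.036, compared with a within-group SD of 0.12 between embryos.

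*Apoa4*, an apolipoprotein of intestinal and yolk sac lipoproteins, varied most of all the probes. It was at 2.67, 2.42, 1.50 and 1.50 compared with 2.12, 1.98, 1.93 and 2.70, with replicates 3 and 4 of the HOM father group lowest. Its within-group SD of 0.50 exceeded that of 93.1% of tested probes, and the difference of -0.16 had an interval of -0.89 to 0.56 (limma adjusted p = 0.753). *Apob* encodes the structural protein of the larger lipoproteins. Its probe A_52_P441070 was at 4.59, 3.65, 3.96 and 4.27 compared with 3.96, 3.97, 4.49 and 4.33, and A_55_P1957198 at 5.05, 4.24, 4.41 and 5.14 compared with 4.78, 4.98, 4.45 and 4.83. The differences were -0.07 and -0.05, with intervals of -0.57 to 0.43 and -0.57 to 0.47 (limma adjusted p of 0.854 and 0.897). The probes gave different orders of the HET father embryos, and the first minus the second ranged from -1.005 to 0.034 over the 8 embryos, so that the level of *Apob* in a single embryo depends on the probe.

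Promoters are shown for *Apoa1*, which passed the test, for *Apoa4*, which lies beyond *Apoc3* in the same apolipoprotein cluster on chromosome 9 and did not, and for *Afp*, the marker of the tissue. Each is the 250 bases before the RefSeq gene start (GRCm38.p6, chr9:46228380-46228629, chr9:46240594-46240843 and chr5:90490464-90490713, all forward strand), with capitals where a searched motif was found.
Apoa1: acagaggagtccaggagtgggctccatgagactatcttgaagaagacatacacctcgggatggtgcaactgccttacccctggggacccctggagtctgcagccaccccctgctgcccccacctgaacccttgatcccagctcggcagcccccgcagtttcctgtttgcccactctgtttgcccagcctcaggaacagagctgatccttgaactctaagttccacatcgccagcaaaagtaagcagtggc
Apoa4: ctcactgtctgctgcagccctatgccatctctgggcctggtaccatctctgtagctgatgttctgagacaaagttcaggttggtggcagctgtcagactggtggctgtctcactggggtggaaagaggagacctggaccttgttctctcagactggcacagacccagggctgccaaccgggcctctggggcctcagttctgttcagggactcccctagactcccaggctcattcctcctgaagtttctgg
Afp: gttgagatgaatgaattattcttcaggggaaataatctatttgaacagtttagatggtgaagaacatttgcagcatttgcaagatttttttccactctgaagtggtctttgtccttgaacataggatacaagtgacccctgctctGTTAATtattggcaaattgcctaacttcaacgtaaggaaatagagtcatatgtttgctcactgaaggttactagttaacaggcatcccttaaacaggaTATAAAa

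Motifs of factors known in endoderm were searched on both strands in windows of 300 bases, 250 before and 50 after the start, which were found for 7 of the 9 genes (8 windows). The *Afp* promoter held GTTAAT, the shorter HNF1 motif, 105 to 100 bases before the start, and TATAAA 7 to 2 bases before it. GTTAAT was found in 7.10% of all 32851 windows and TATAAA, the TATA box, in 13.6%. TATAAA also occurred in windows of *Rbp4* and *Apob*, and TGTTTAC (FOXA, in 3.65% of all windows) in 1 *Rbp4* window. The other motifs were not found in the 8 windows. Of all windows, 0.0091% held the full HNF1 motif and 0.475% held the HNF4 motif CAAAGTCCA. A variant FOXA motif, TATTTAC, was held by 3.04%, and the GATA motif, which reads AGATAA, by 11.2%. None of the 7 motifs was found in the *Apoa1* or *Apoa4* window, which says only that these letters are not in it.

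The uptake receptor did not differ significantly by father. *Amn*, which encodes the membrane anchor amnionless, was at 4.52, 4.64, 4.32 and 4.33 compared with 4.62, 4.62, 4.76 and 4.57. Replicates 3 and 4 of the HOM father group, both male and with the same leading number in their identifier, were the lowest. The difference was -0.19 (-0.39 to 0.01, limma adjusted p = 0.166). *Cubn* encodes the ligand-binding partner cubilin. Its probe A_55_P2047639 was at 6.25, 6.23, 6.05 and 6.25 compared with 6.08, 6.23, 6.26 and 6.20, a difference of 0.0019 (-0.15 to 0.16, limma adjusted p = 0.987). The second probe, A_55_P2047638, lay between 1.59 and 1.84 in all embryos and differed by -0.05 (-0.19 to 0.10, limma adjusted p = 0.623).

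Of the 12 probes, 0 were called by the limits of the study's methods (limma adjusted p below 0.01 and at least 2-fold), compared with 1.27% of all tested probes. Without a fold limit, 1 probe passed at an adjusted p below 0.05, downwards, while 8.69% of all tested probes passed downwards and 21.0% passed in either direction. At an unadjusted p below 0.05 the count was also 1, compared with 34.8% of all tested probes. No variance model or scaling that was tried called a probe at 2-fold. The fitted difference was negative for 11 of 12 probes and for 16092 of all 29718 tested probes. The count of 11 became 12 under median scaling, 8 under quantile normalisation and 7 without HOM father replicate 3. The median difference of the 12 probes was -0.09, compared with -0.02 over all tested probes. The intervals place all 12 differences within 2-fold. Scaling arrays to their median put the median difference of all tested probes at -0.22 and let 5 of the 12 pass (*Ttr*, *Trf*, *Apoa1*, *Amn* and *Cubn*, all lower). Relative to that shift, *Apoa1* was at -0.39 and the median of the 12 probes at -0.07, as they were in the 75th percentile scaling. Under quantile normalisation this did not hold for the median. The 12 probes had a median of -0.015, above the -0.038 of all tested probes, and *Apoa1* was at -0.29 relative to the latter.

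**Figure D2:**
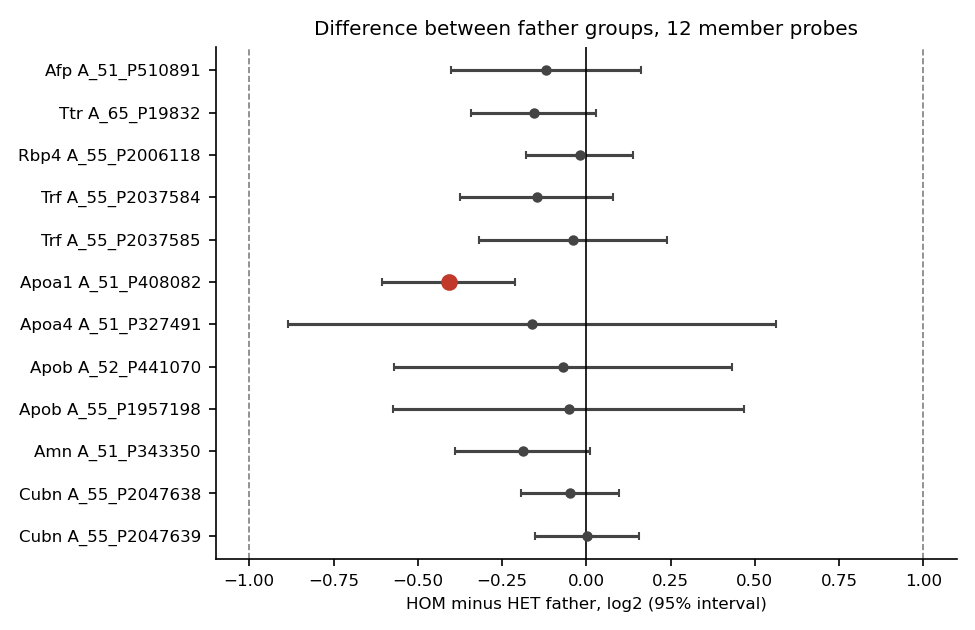
Difference between father groups on the log2 scale (horizontal axis, HOM minus HET father) for the 12 probes, with 95% intervals from the limma fit and dashed lines at 2-fold in each direction. *Apoa1* (red) is at -0.41 and passed at an adjusted p below 0.05, while the intervals of the other 11 probes include 0.

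Genes with related roles were taken from lists. At a limma adjusted p below 0.05, 3 of the 52 tested probes in 5 endoderm lists had lower and 1 had higher signal in the HOM father group, with a median difference of -0.07. Of all tested probes, 8.69% were lower and 12.3% were higher, and the counts of the lists below stand beside the same shares. In the lipoprotein list 1 of 10 probes passed, that of *Apoc1*, an apolipoprotein of remnant and high-density lipoproteins. Its signal was 3.04, 3.99, 3.43 and 3.54 compared with 4.16, 4.08, 4.18 and 4.15, a difference of -0.64 (limma adjusted p = 0.0388), which kept its call in 6 of 18 alternative analyses. Samples can share the leading number of their identifier, as replicates 3 and 4 of the HOM father group and replicates 1 and 2 of the HET father group do. With that number as a random block (estimated correlation 0.30), the limma adjusted p of *Apoc1* was 0.0564. *Apoc3*, the gene between *Apoa1* and *Apoa4*, differed by -0.28 (limma adjusted p = 0.308) and is named here after its value was seen. In the list of receptors and endocytic partners *Lrpap1*, a chaperone of lipoprotein receptors, was lower on A_52_P583973 (-0.29, limma adjusted p = 0.00957) and at -0.17 on its second probe (limma adjusted p = 0.0990).

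None of 11 probes of other plasma proteins and none of 6 probes of gut endoderm genes passed (0 and 1 at an unadjusted p below 0.05). *Alb*, the serum albumin gene, was not well above background in any of the 8 embryos, unlike its relative *Afp*.

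Female and male embryos did not differ significantly in these genes. With father in the model, 0 of 12 probes passed for sex (limma adjusted p below 0.05), compared with 0.121% of all tested probes, and 1 passed at an unadjusted p below 0.05 (5.22% of all tested probes). That probe was *Amn*, 0.18 higher in females (limma adjusted p = 0.914). For the interaction of father and sex 0 of 12 passed, compared with 0.0639% of all tested probes, and 1 at an unadjusted p below 0.05 (4.52% of all tested probes). That was *Apoa4*, at 2.67 and 2.42 in HOM father females, 1.50 and 1.50 in HOM father males, 2.12 and 1.93 in HET father females, and 1.98 and 2.70 in HET father males. The father difference was 0.52 in females and -0.84 in males (limma adjusted p of the interaction = 0.786), so that the difference between the sexes did not pass the correction over all probes. The 2 HOM father males share the leading number of their identifier, which neither HOM father female carries. Sex and that number therefore cannot be told apart within the HOM father group.

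The labels give the tissue as embryo, and the sources used here do not state how much yolk sac was kept with it. To describe the joint level of the 9 genes in each sample, an index was taken as the median over the 9 genes of the deviation from each gene's mean over the 8 embryos, with the brighter probe for genes that have 2. Other endoderm lists did not always follow it, as given below. The index was 0.09, -0.13, -0.23 and 0.02 in embryos of HOM fathers and 0.05, 0.05, 0.07 and 0.05 in those of HET fathers. The SD was 0.0098 in the HET father group and 0.15 in the HOM father group. How close the HET father embryos lay depended on the scaling, with an SD of 0.0402 under quantile normalisation and 0.0524 under median scaling (0.15 and 0.18 in the HOM father group). The HOM minus HET father difference was -0.12, with a within-group SD of 0.10. It was -0.048 under quantile normalisation and -0.32 under median scaling, which also moved the median of all tested probes. HOM father replicate 3 was below the mean of all 8 embryos for 9 of 9 genes and lowest of its group for 6. HOM father replicate 1 was highest of its group for 6 of 9 genes. Without replicate 1 the median father difference over the probes was -0.21, and without replicate 3 it was -0.027, compared with -0.09 for all embryos. These 2 embryos moved the median in opposite directions.

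**Figure D3:**
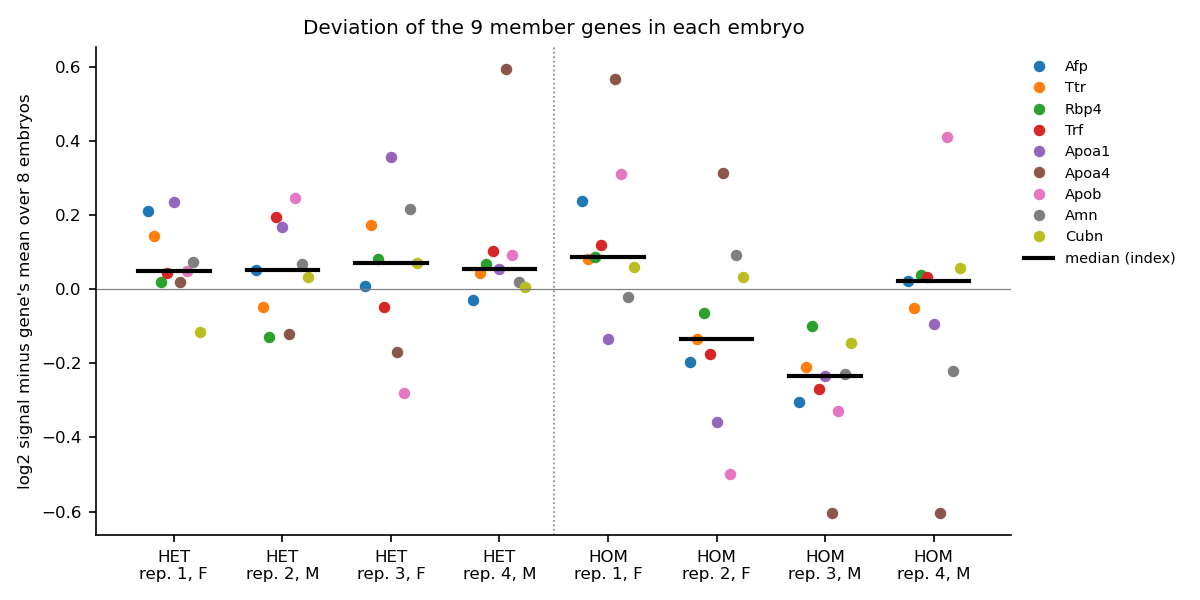
Deviation of each of the 9 genes from its mean over 8 embryos (vertical axis, log2) in each embryo, labelled by father group, replicate and sex, with the median as a black bar. All 9 points lie below 0 in HOM father replicate 3, while the bars of the 4 HET father embryos lie between 0.05 and 0.07.

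Likeness to this pattern differed between the genes. Over the 8 embryos, which share these slides and scalings, Pearson's r between a gene and the median deviation of the other 8 genes was 0.86 for *Afp*, 0.85 for *Trf* and 0.79 for *Ttr*. It was 0.58 for *Rbp4*, 0.57 for *Apoa1*, 0.56 for *Apob* and 0.48 for *Cubn*, and 0.38 for *Amn* and 0.33 for *Apoa4*. By rank (Spearman's rho) the likeness was weaker, at 0.62 for *Afp* and *Ttr* and 0.57 for *Trf*. The rho of the other genes lay between 0.095 (*Amn*) and 0.40 (*Rbp4* and *Apoa1*). Of the 36 pairs of genes, 34 had an r above 0, with a median of 0.37. The share among pairs of other probes was not computed, so this count cannot show whether the likeness is particular to these genes. These are descriptions over 8 samples, with no test. Spots of one probe on one array differed by much less than the embryos did. The 10 spots of *Afp* had an SD of 0.029 to 0.061 per array, compared with a within-group SD of 0.19 between embryos.

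Outside the gene lists, the 10 genes with 1 tested probe whose signal was most like the index over the 8 embryos, of 3694 probes compared, included *Rln1*, *Insl6*, *Zfp963*, *Ocel1*, *Bpifb1*, *Slc25a42*, *Klhl26*, *Ppp1r14d* and *Pde8b* (r between 0.90 and 0.97). Their Spearman's rho lay between 0.55 (*Bpifb1*) and 0.98 (*Rln1*). None of them passed the test by father (limma adjusted p between 0.133 and 0.539).

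Other tissues that a sample at this stage can hold were examined through lists of their marker genes. The index of primitive blood genes, which mark red cells made in the yolk sac, was lowest in HOM father replicate 3 as well (-0.56), between -0.13 and -0.03 in the other HOM father embryos, and between 0.09 and 0.22 in HET father embryos. The summed signal of these genes was 615 to 792 compared with 789 to 823 times the 75th percentile of the array. Of the 8 blood probes, 1 passed by father at a limma adjusted p below 0.05, downwards, as did 8.69% of all tested probes. At an unadjusted p below 0.05 the count was 4 of 8, compared with 34.8% of all tested probes. The lipoprotein and other plasma protein lists were also lowest in HOM father replicate 3 (-0.28 and -0.18). In HOM father replicate 3 the index of extra-embryonic mesoderm was 0.03, that of gut endoderm 0.14 and that of parietal endoderm -0.02. HOM father replicate 2, second lowest for the 9 genes, was at 0.08 for lipoprotein genes. It was at 0.09 for receptors and endocytic partners and at 0.08 for endoderm transcription factors. For other plasma proteins and gut endoderm it was at -0.09 and -0.01.

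Genes of trophoblast varied more between embryos than the endoderm genes did, with a median range over the 8 embryos of 1.70, compared with 0.46 for the 9 genes. The median range of all tested probes was 0.49. The 1.70 is the range of *Gcm1* on A_55_P2114697, and it includes the difference between father groups given below. Of the maternal decidua genes 3 of 4 had a tested probe, and Cyp11a1 was well above background on 6 of the 8 arrays and not in HET father replicates 3 and 4, so that no index of this list is given. *Prl8a2*, a decidual prolactin named here after its values were seen, was at 0.29, 4.14, 4.45 and 1.30 compared with 1.85, 1.88, -1.42 and -3.99. Its 2 highest embryos, HOM father replicates 2 and 3, were the 2 lowest for the endoderm index, whereas its 2 lowest, HET father replicates 3 and 4, had an endoderm index of 0.07 and 0.05. That index covers the 9 genes only, and the lipoprotein, receptor and transcription factor lists were not low in HOM father replicate 2, as given above. The *Prl8a2* difference of 2.97 was not significant (limma adjusted p = 0.215), and 0 of 3 decidua probes passed (0 at an unadjusted p below 0.05). *Cyp11a1* was also highest in HOM father replicates 2 and 3. *Igfbp1*, also named after its values were seen, was at 0.45, -0.06, -1.06 and -0.76 compared with -0.46, -0.63, 0.27 and -0.57. It was lowest in HOM father replicate 3. The summed signal of the list was 2.62 to 22.6 compared with 0.747 to 4.41 times the 75th percentile, and its high end comes mostly from *Prl8a2*. The trophoblast index ranged from -0.60 in HOM father replicate 1 to 0.68 in HOM father replicate 2, with a summed signal of 10.4 to 20.8 compared with 17.2 to 28.4. Of its 8 probes 5 were fitted lower and 3 higher. Only 1 passed, A_55_P2114697 of *Gcm1*, a factor of syncytiotrophoblast (-1.07, limma adjusted p = 0.0217). The other tested probes of *Gcm1* were at -0.99 and -0.35 (limma adjusted p of 0.0527 and 0.101). The markers *Tpbpa* (trophoblast) and *Prl3c1* (decidua) were not well above background in any of the 8 embryos.

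For parietal endoderm, 0 of 9 probes passed by father (0 at an unadjusted p below 0.05) and the summed signal was 188 to 203 compared with 189 to 204. In extra-embryonic mesoderm 1 of 5 probes was lower, that of the growth factor gene *Bmp4* (-0.32, limma adjusted p = 0.0157), and the summed signal was 25.1 to 33.5 compared with 34.4 to 37.3. *Bmp4* was the brightest gene of this list, so the sum is not independent of its difference. The sum also holds *Tbx4*, which was at -0.68 in HOM father replicate 1. Among embryo proper genes 2 of 8 probes were lower, those of the mesoderm factor *Tbx6* (-0.32, limma adjusted p = 0.0359) and the heart gene *Myl7* (-0.25, limma adjusted p = 0.0408). With the identifier number as a random block, neither passed (limma adjusted p of 0.0517 and 0.0636). The summed signal of the list was 29.6 to 32.7 compared with 31.2 to 37.7. The summed signal of the 9 endoderm genes was 499.6 to 627.0 in embryos of HOM fathers and 578 to 606 in those of HET fathers. The part of these tissues in the differences of the 9 genes was not tested.

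**Figure D4:**
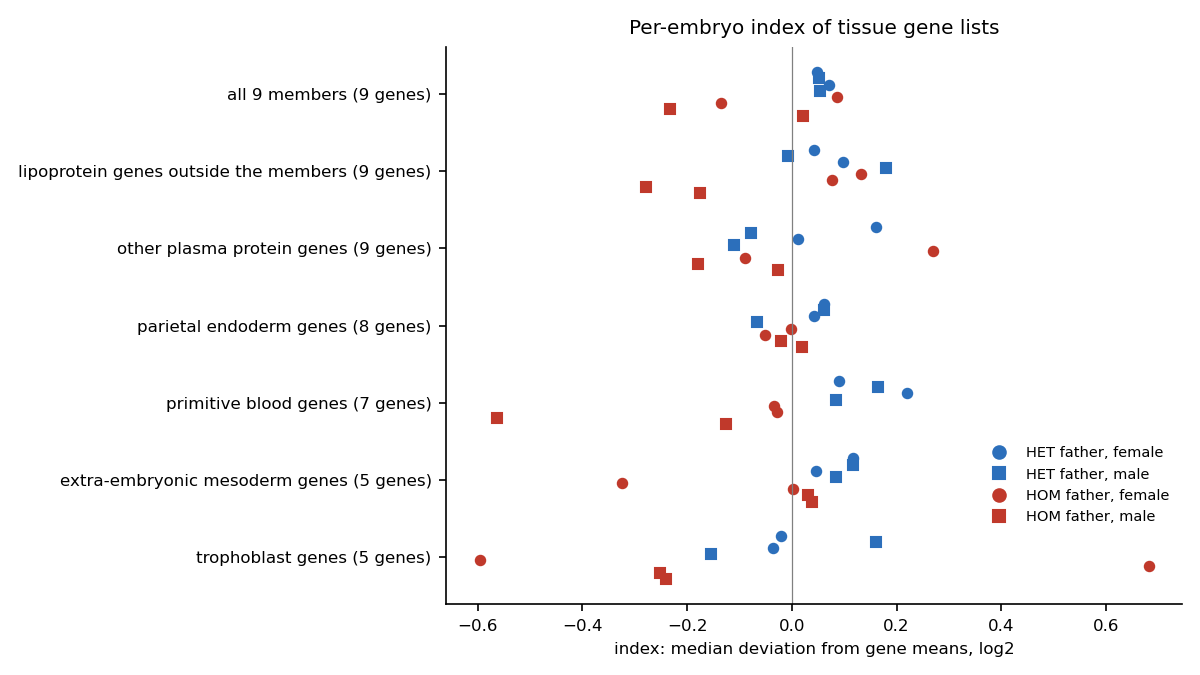
Index of each gene list per embryo (horizontal axis, median deviation from gene means on the log2 scale), with HET father embryos in blue, HOM father embryos in red, circles for females and squares for males. The index of the 9 genes spans 0.32, whereas that of the trophoblast genes spans 1.28.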

How the data were processed

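Per the labels, total RNA (0.2 µg) of single embryos was labelled with Cy3 and each sample was hybridised to 1 Agilent array. The deposited tables hold spot intensities on a linear scale, which the authors made with Agilent Feature Extraction version 11.0.1.1, with the background subtracted and no scaling between arrays. The authors' series table held the same intensities (differences up to 0.497%). Deposited spot flags are other values (0 or 1). Outlier spots were left out, log2 signals were set relative to the array's 75th percentile, and spots of a probe were averaged. Tested probes had to exceed background well, and lie no lower than the 20th percentile, on at least 4 of 8 arrays (29718 of 55681). Probes of 1 gene were kept apart. RefSeq accessions were matched to gene names of assembly GRCm38.p6 for 27235 probes (48.9%). The files use build mm9, and its coordinates are not used here.

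limma version 3.58.1 (lmFit and eBayes in R version 4.3.3, two-sided tests) was fitted to all tested probes, with Benjamini-Hochberg adjustment. Sex was tested with father as a covariate. Alternatives were median and quantile scaling, normexp background correction (offset 50), other filters, the authors' table, other variance models, blocks, and leaving out each embryo. Normexp used the median spot signal, as the tables hold no mean spot signal, and was chosen after the files were seen. The script was tested on simulated data. Promoters are from RefSeq.

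The 9 genes and the lists were chosen with earlier results of these data known. The text names all probes of the 9 genes, from each other list up to 2 genes with the largest difference at an adjusted p below 0.05, and the 10 genes outside the lists most like the index. Other names were chosen after their values were seen, and the results of some genes under these rules are not reported here. The number of arrays, 4 per group, limits the precision. Of the 85 genes in the other 11 lists, 2 had no matched probe.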

Additional observations from a re-analysis of the deposited data

Results flagged for a closer look

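A highest or lowest embryo far from the rest of its group, by the ratio of its gap to the group's range (Dixon's ratio, 95% critical value), was looked for in 88 groups of 4 embryos. The groups covered the 12 probes, list genes that passed by father, genes of trophoblast, decidua and extra-embryonic mesoderm, and the list indices. This held for 8 groups, while about 1 in 20 groups, or 4.4 here, is what chance gives.

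Among the 12 probes this held once. *Cubn* (A_55_P2047639) was at 6.05 in HOM father replicate 3, the embryo with the lowest endoderm index, and between 6.23 and 6.25 in the rest of its group. In HOM father replicate 2 the trophoblast factors *Ascl2* and *Elf5* were at 1.67 (-1.98 to -1.42 in the rest of its group) and -2.30 (-3.42 to -3.24). *Elf5* was also high in HET father replicate 3, at -2.08 compared with -3.21 to -3.14.

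In HOM father replicate 1 the allantois gene *Tbx4* was at -0.68 and between 2.15 and 2.42 in the rest of the group, and the index of extra-embryonic mesoderm was -0.32 compared with 0.0018 to 0.04. *Postn* was at 0.82 in HET father replicate 3 and between 1.44 and 1.52 in its group, and the parietal endoderm index was -0.066 in HET father replicate 4 and between 0.04 and 0.06 in its group.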

How the results depend on the processing

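With 18 alternatives to the father comparison, 0 of the 12 probes were called at 2-fold in each, and 0 passed for sex or for the interaction in 17. *Apoa1* stayed negative in all 18 (-0.60 to -0.33) and kept its call in 16. The count of probes passing at an adjusted p below 0.05 rose from 1 to 5 under median scaling and was 0 with no filter on dim probes and 0 with the replicate block, and it was 1 whichever embryo was left out. Replicate numbers showed no clear pairing of the samples. The correlation of deviations by number was 0.19, -0.09, -0.13 and 0.15, and 2 of the 4 HOM father embryos correlated best with their own number. These few values cannot settle whether the numbers pair the samples, so the losses under the block remain a limit of those calls. The median difference was -0.29 under median scaling and -0.015 under quantile normalisation. With an embryo left out it was between -0.21 (without HOM father replicate 1) and -0.027 (without HOM father replicate 3). The count for the 5 endoderm lists, 4, became 14 under median scaling, 0 with no filter, 2 with the replicate block, and 2 to 5 with an embryo left out (2 without HET father replicate 2 or 3 or HOM father replicate 3 or 4). Calls were kept in 17 of 18 alternatives for *Lrpap1* and *Bmp4*, in 12 for *Gcm1*, in 8 for *Tbx6* and in 5 for *Myl7*. Over all tested probes, 3660 passed upwards and 2583 downwards, but 2279 and 10321 under median scaling. The index under median scaling was -0.35 in HOM father replicate 3, -0.18 in HOM father replicate 4, 0.15 in HET father replicate 1 and 0.23 in HET father replicate 3. The cause of these shifts was not tested.

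Differences that changed sign belonged to probes that did not pass. These were *Rbp4* (0.093 under quantile normalisation, -0.066 to 0.0099 with an embryo left out), *Trf* A_55_P2037585 (0.16 under normexp, 0.033 under quantile normalisation, -0.12 to 0.035 with an embryo left out), *Apoa4* (0.00039 under normexp, -0.38 to 0.012 with an embryo left out) and *Apob* (A_55_P1957198 at 0.012 under quantile normalisation and -0.20 to 0.10 with an embryo left out, A_52_P441070 at -0.23 to 0.087). *Cubn* A_55_P2047639 was at -0.00077 in the authors' table, -0.19 under median scaling, -0.054 under normexp and -0.036 to 0.0504 with an embryo left out.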

Other observations

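Of the 10 genes whose signal was most like the endoderm index, 4 (*Zfp963*, *Ocel1*, *Slc25a42* and *Klhl26*) lie within a stretch of chromosome 8 that holds 96 RefSeq genes, and *Rln1* and *Insl6* are neighbours on chromosome 19. None of the 9 endoderm genes described above was chosen by this likeness, and the shared chromosomes were noticed after the values were seen. *Zfp963*, a zinc finger gene, was at -0.70, -3.49, -3.56 and -1.51 in embryos of HOM fathers and at -0.74, -0.72, -0.83 and -1.58 in those of HET fathers. *Ocel1* was at 1.82, 0.11, -0.28 and 1.16 compared with 1.91, 1.82, 1.91 and 1.11. For both genes HOM father replicates 2 and 3 were lowest, and replicate 4 of each father group lay between them and the other embryos.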
